A study of Mus musculus with 12 samples.

Results

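Macrophage genes of the embryonic mouse limb were followed through 10 genes, namely Adgre1, Csf1r, Cd68, Aif1, Mrc1, Lyz2, C1qa, C1qb, C1qc and Fcgr3. They were taken as a list of names, chosen with earlier results of these data known. Every probe set that the platform annotation assigns to one of them alone was read, which gave 14 of 45037 probe sets. The list makes up 10 of the 18193 genes tested. Total RNA of limbs was hybridised to 12 Affymetrix mouse genome arrays, which read a transcript through 1 or more sets of short probes, and values are log2 expression. The arrays fell into 6 groups of 2. KO limbs were Lmx1b -/- and WT limbs Lmx1b +/+, both from C57BL/6 embryos, at 11.5, 12.5 and 13.5 days post coitum (dpc). Lmx1b encodes a LIM homeodomain protein that specifies the dorsal side of the limb, and the labels describe no deletion restricted to a cell type. Each array held a pool of limbs, and duplicates came from different embryos. The series text gives 6, 3 and 6 limbs per pool at the 3 stages, whereas the extraction protocol gives 6 throughout. At the earlier stages, 11.5 and 12.5 dpc, the tissue was limb bud plus girdle, and at 13.5 dpc it was the distal limb, with forelimbs and hindlimbs both used. By the array names in the labels, KO and WT limbs of a stage belong to 1 array series and each stage to another, so a change between stages cannot be told apart from a change of array series, nor, at 13.5 dpc, from the change of dissected tissue.

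Macrophages are phagocytes that settle in embryonic tissues before the bone marrow exists, at first from yolk sac progenitors and then also through the fetal liver. Their survival depends on the receptor CSF1R and its ligands CSF1 and IL-34, and their gene programme on the transcription factor PU.1. In the limb they are known for engulfing dying cells, above all between the digits. C1q, the recognition molecule of the classical complement pathway, is made largely by macrophages and also binds dying cells.

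All 10 genes were measured. On the probe set that represents it (the brightest over the 12 arrays), each gene except Aif1 had a mean above 6.28 log2 units, the median of all values. Aif1 had a mean of 4.98, with 29.65% of probe sets dimmer, and fold changes are compressed toward the dim end. Cd68 averaged 6.40, close to that median, and its 12.5 dpc arrays (6.12 to 6.22) lay below it. In pooled limb RNA, fewer macrophages and less RNA of a gene per macrophage cannot be told apart. The known close paralogs of Lyz2 (Lyz1) and of Fcgr3 share much of their sequence, and cross-hybridisation was not tested.

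The genotype labels were checked on Lmx1b, which averaged 5.66 ± 0.08 in KO and 9.46 ± 0.25 in WT limbs at 11.5 dpc, 6.76 ± 0.37 and 9.42 ± 0.19 at 12.5 dpc, and 8.18 ± 0.99 and 10.23 ± 0.05 at 13.5 dpc (SD, n = 2 each) on the brighter of its probe sets. KO minus WT there was -3.80 at 11.5 dpc (limma adjusted p = 0.00872) and -2.66 at 12.5 dpc (adjusted p = 0.0476), and -2.05 at 13.5 dpc, which did not pass (adjusted p = 0.153). The dimmer probe set gave -0.22, -0.24 and -0.02 at the 3 stages and passed at none (smallest limma adjusted p = 0.588 over all probe sets), and where it lies relative to the deletion was not tested. A pair of KO arrays stood apart from their replicates. KO 13.5 dpc replicate 2 held Lmx1b at 8.88, the globin Hbb-bh1 at 12.91 and the proximal limb gene Meis1 at 9.46, where replicate 1 had 7.48, 10.48 and 7.76. The heat shock gene Hspa1a stood at 9.36 in KO 12.5 dpc replicate 2 and between 4.80 and 5.71 in the other 11 arrays. Replicates of KO 12.5 dpc differed by 0.356 log2 units (root mean square over genes) and those of KO 13.5 dpc by 0.267, against 0.140 to 0.237 in the other groups. Pitx1, which specifies the hindlimb, was at most 6.28 (from 5.76) before 13.5 dpc, whereas the 13.5 dpc arrays read 9.88 to 10.30.

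Promoter sequence is shown for C1qc, Lyz2 and Cd68, whose levels had their lowest 4 arrays at 12.5 dpc, and which have an entry in the RefSeq promoter table for GRCm38.p6. Windows of 300 bases, with 250 before and 50 after the annotated start, were read for 7 of the 10 genes. Each had 1 window except Fcgr3, which has 2 that overlap. No window was at hand for Adgre1 and C1qa. Csf1r was left out of the 7 genes counted, and its matches are not given. The gene counts below therefore do not cover Adgre1, C1qa or Csf1r, and how Csf1r would change them is not shown. GAGGAA, the core letters of PU.1 binding sites, was searched on both strands (TTCCTC on the other). It stood in the windows of 6 of these 7 genes (Aif1, C1qb, C1qc, Cd68, Fcgr3 and Mrc1, not Lyz2), where 28.3% of 32851 mouse windows hold it. The other motif searched, TATAAA, with TTTATA on the other strand, stood in no window of these 7 genes and in 13.6% of all windows. A match of letters is not a measured binding site. The 250 bases before the start are printed 5′ to 3′ on the gene's strand, with GAGGAA or TTCCTC in capitals. C1qc lies at chr4:136892915-136893164, Lyz2 at chr10:117282273-117282522 and Cd68 at chr11:69666171-69666420, all on the minus strand.
C1qc: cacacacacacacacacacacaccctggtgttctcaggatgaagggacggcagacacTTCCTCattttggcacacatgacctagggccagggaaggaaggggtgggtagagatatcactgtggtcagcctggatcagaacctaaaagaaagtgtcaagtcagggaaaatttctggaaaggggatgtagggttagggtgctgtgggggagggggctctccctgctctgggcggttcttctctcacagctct
Lyz2: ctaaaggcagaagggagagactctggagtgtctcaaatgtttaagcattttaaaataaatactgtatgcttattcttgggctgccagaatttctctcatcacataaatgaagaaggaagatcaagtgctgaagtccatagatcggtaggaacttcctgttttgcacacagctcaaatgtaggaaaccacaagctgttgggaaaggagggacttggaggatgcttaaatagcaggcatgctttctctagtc
Cd68: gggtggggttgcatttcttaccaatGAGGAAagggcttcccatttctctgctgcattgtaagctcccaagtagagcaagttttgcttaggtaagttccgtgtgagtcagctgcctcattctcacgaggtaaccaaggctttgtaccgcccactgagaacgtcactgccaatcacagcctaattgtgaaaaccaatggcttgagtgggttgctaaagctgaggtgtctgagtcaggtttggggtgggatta
The capital letters of C1qc and of Cd68 both lie far upstream of the start, those of Cd68 the farther. Cd68 has a further match inside the 50 bases after the start, which are not printed.

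The complement gene C1qc varied most among the 10 over the 12 arrays. C1qa, C1qb and C1qc encode the 3 chains of C1q and lie together on chromosome 4. In KO limbs C1qc read 7.42 and 7.44 at 11.5 dpc, 6.71 and 6.62 at 12.5 dpc, and 7.03 and 7.09 at 13.5 dpc. WT limbs read 7.21 and 7.19, then 6.48 and 6.55, then 7.46 and 7.34 at the same stages. In both genotypes the 12.5 dpc arrays were the lowest and did not overlap with either neighbouring stage. KO arrays lay above WT arrays at 11.5 and 12.5 dpc and below them at 13.5 dpc. C1qa followed the same course at smaller amplitude. It read 7.67 and 7.57, then 7.18 and 7.13, then 7.47 and 7.34 in KO limbs, against 7.42 and 7.54, then 7.07 and 7.04, then 7.63 and 7.62 in WT limbs. Again KO arrays lay above WT arrays at both earlier stages and below them at the last.

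C1qb, on its representing probe set 1434366_x_at, did not share this course. Its KO values were 8.08 and 7.97, then 8.22 and 8.06, then 7.89 and 7.89, and its WT values 8.05 and 8.11, then 8.22 and 8.17, then 8.19 and 7.96. The whole range was 0.33 log2 units, smaller than that of all but 9.29% of genes. The suffix _x_at marks a set in which some probes resemble other sequences. Probe set 1417063_at of the same gene read 7.99 and 7.94, then 7.55 and 7.79, then 7.52 and 7.76 in KO limbs, against 7.80 and 7.84, then 7.68 and 7.58, then 7.83 and 7.78 in WT limbs, with the 12.5 dpc arrays below those of 11.5 dpc in both genotypes. The probe sets of C1qb differed in direction, and a statement about this chain depends on which one is read.

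Lyz2 encodes lysozyme M, which cleaves bacterial cell walls, and is widely used to mark myeloid cells. KO limbs read 7.28 and 7.23, then 6.43 and 6.79, then 7.0 and 7.14, and WT limbs 7.10 and 7.14, then 6.61 and 6.45, then 7.13 and 7.12. All 4 arrays of 12.5 dpc lay below the other 8. Cd68, a glycoprotein of the lysosomes of phagocytes, read 6.54 and 6.55, then 6.15 and 6.22, then 6.47 and 6.47 in KO limbs, against 6.31 and 6.53, then 6.12 and 6.19, then 6.67 and 6.66 in WT limbs. Its 12.5 dpc arrays were also the lowest 4 of 12, and at 13.5 dpc both WT arrays exceeded both KO arrays.

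Among the surface receptors, Adgre1 encodes F4/80, the classical surface marker of mouse macrophages. It read 7.91 and 7.67, then 7.17 and 7.07, then 7.59 and 7.45 in KO limbs, against 7.53 and 7.41, then 7.51 and 7.29, then 7.43 and 7.67 in WT limbs. The highest of the 12 values was a KO array of 11.5 dpc and the lowest 2 were the KO arrays of 12.5 dpc, whereas WT arrays overlapped between all stages. Csf1r, on 1419872_at, read 9.24 and 9.07, then 8.86 and 9.18, then 8.86 and 9.0 in KO limbs, against 9.0 and 8.98, then 8.97 and 8.61, then 9.20 and 9.09 in WT limbs. Its KO arrays of 12.5 dpc overlapped with those of 11.5 and of 13.5 dpc, both KO arrays of 11.5 dpc lay above both of 13.5 dpc, and in WT limbs those of 12.5 dpc were the lowest. Fcgr3, a low-affinity receptor for the constant part of IgG, read 6.93 and 6.80, then 6.28 and 6.62, then 6.22 and 6.63 in KO limbs, against 6.72 and 7.01, then 6.41 and 6.50, then 6.74 and 6.68 in WT limbs. Its KO replicates of 12.5 and 13.5 dpc lay far apart, and its residual SD was larger than that of 81.0% of genes. Mrc1, the mannose receptor CD206, read 7.58 and 7.57, then 7.45 and 7.58, then 7.73 and 7.74 in KO limbs, against 7.48 and 7.63, then 7.73 and 7.42, then 7.78 and 7.91 in WT limbs. Its highest 3 arrays were those of WT 13.5 dpc and 1 of KO 13.5 dpc, with both KO arrays of that stage below both WT arrays.

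Aif1 encodes IBA1, an actin-bundling protein of macrophages and microglia. It read 5.14 and 5.34, then 4.87 and 4.91, then 4.74 and 4.88 in KO limbs, against 4.88 and 5.13, then 5.05 and 4.99, then 5.04 and 4.78 in WT limbs. The highest 2 arrays were those of KO 11.5 dpc, and the other groups overlapped with at least 1 other.

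**Figure D1:**
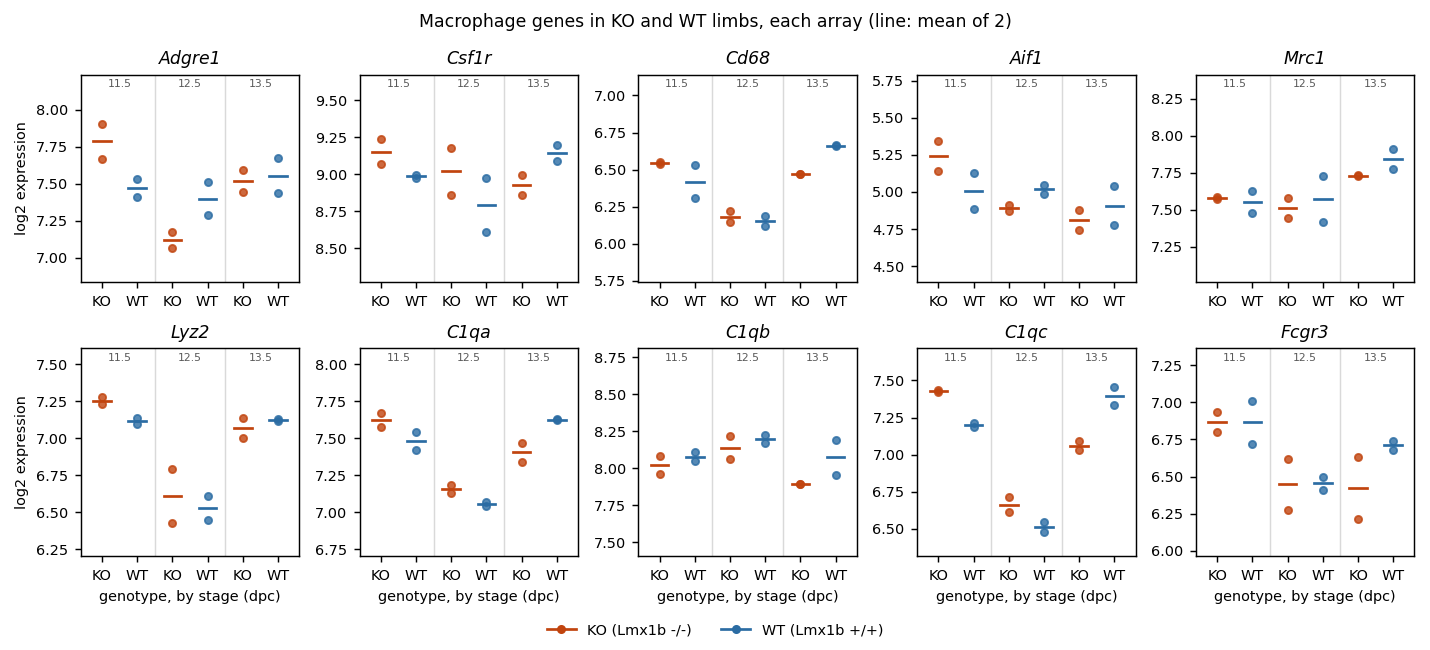
Log2 expression (vertical axis, range set per gene) of the 10 genes in each of the 12 arrays, with KO left of WT at each stage, points for arrays and lines for means of 2. For C1qc, C1qa, Lyz2 and Cd68 both 12.5 dpc arrays lie below all arrays of 11.5 and 13.5 dpc in each genotype, and for C1qb and Mrc1 they do not. Both KO points lie above both WT points for 7 of the 10 genes at 11.5 dpc (12.8% of all genes). At 13.5 dpc both lie below for 7 of the 10 (22.3% of all genes).

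KO and WT limbs were compared at each stage with limma, with Benjamini-Hochberg adjustment over 18193 genes, following the question in the series title of which genes differ in expression between the genotypes. None of the 10 genes passed the threshold of 0.05 at 11.5 dpc (smallest limma adjusted p = 1.00), 12.5 dpc (0.459) or 13.5 dpc (0.473). The background at this threshold was 0.0165%, 0.0385% and 0.0275% of genes at the 3 stages, so that few genes of any kind passed. In the mean of the 3 stages, 0 of 10 passed (smallest limma adjusted p = 0.822), against 0.203% of all genes, and the differences lay between -0.10 and 0.06. At an unadjusted p under 0.05 it was also 0 of 10, against 6.87% of all genes. The 95% intervals of these mean differences reached no further than -0.30 and 0.24 log2 units. At single stages the intervals were wider, out to -0.64 for Fcgr3 at 13.5 dpc and 0.60 for Adgre1 at 11.5 dpc.

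At an unadjusted p under 0.05, 2 of the 10 genes were above WT in KO limbs at 11.5 dpc, as were 0.522% of all genes. These were Adgre1, with a difference of 0.31 ± 0.13 (SE; 95% interval 0.03 to 0.60), and C1qc, with 0.23 ± 0.09 (0.04 to 0.42). At 12.5 dpc there were 0 in either direction on the representing probe sets, against 10.9% of all genes. At 13.5 dpc 2 were below WT in KO limbs, as were 4.29% of all genes, namely C1qc, with -0.34 ± 0.09 (95% interval -0.53 to -0.15), and C1qa, with -0.22 ± 0.09 (-0.42 to -0.02). None of these 4 differences passed the adjustment over all genes.

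The signs of the differences changed with stage. KO minus WT was positive for 9 of 10 genes at 11.5 dpc, with a median of 0.14 log2 units, where 39.7% of all genes were positive with a median of -0.02. It was positive for 5 of 10 at 12.5 dpc (median 0.01), where 45.7% of all genes were positive with a median of -0.02. It was positive for 0 of 10 at 13.5 dpc (median -0.19), where 47.4% of all genes were positive with a median of -0.01. The genes share cells and arrays, so these counts are not 10 independent observations.

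Both KO arrays lay above both WT arrays for 7 of 10 genes at 11.5 dpc (Adgre1, Csf1r, Cd68, Aif1, Lyz2, C1qa and C1qc), which 12.8% of all genes did, and below for 0 (26.8% of all genes). At 12.5 dpc they lay above for C1qa and C1qc (15.0% of all genes) and below for Adgre1 and Aif1 (19.3%). At 13.5 dpc both lay below for 7 of 10 genes (Csf1r, Cd68, Mrc1, C1qa, C1qb, C1qc and Fcgr3), which 22.3% of all genes did, and above for 0 (11.6%). Without KO 13.5 dpc replicate 2, the single remaining KO array lay below both WT arrays for 9 of 10 genes and for 47.4% of all genes. Without KO 12.5 dpc replicate 2, the remaining array lay below both WT arrays for 4 genes (36.5% of all genes) and above them for 2 (34.9%).

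**Figure D2:**
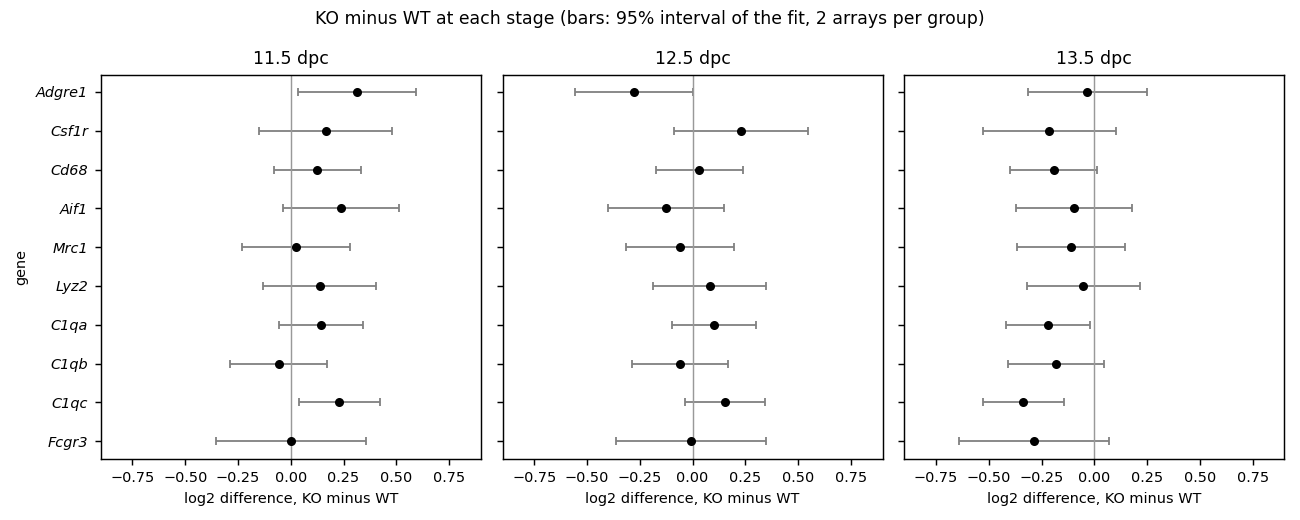
KO minus WT difference in log2 expression (horizontal axis) of each of the 10 genes at 11.5, 12.5 and 13.5 dpc, with 95% intervals of the limma fit to 2 arrays per group. Points lie mostly right of 0 at 11.5 dpc and all left of 0 at 13.5 dpc, and 4 of the 30 intervals leave out 0 before adjustment.

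Whether the genotype difference itself changed between stages was tested as a difference of differences. None of the 10 genes passed in any of the 3 contrasts, and neither did any of the 18193 genes (0.00%) by limma with adjustment. At an unadjusted p under 0.05 the count over all genes was 1132 (6.22%) for 12.5 minus 11.5 dpc, 1546 (8.50%) for 13.5 minus 12.5 dpc and 377 (2.07%) for 13.5 minus 11.5 dpc. Among the 10 genes it was 1, 2 and 3, all negative, where 3.63%, 4.42% and 1.16% of all genes were negative at that threshold. The 1 was Adgre1, with -0.59 ± 0.18 (SE; 95% interval -0.99 to -0.20; limma adjusted p = 0.686). The 2 were C1qc, with -0.49 ± 0.12 (limma adjusted p = 0.454), and C1qa, with -0.32 ± 0.13 (adjusted p = 0.538). The 3 were C1qc, with -0.57 ± 0.12 (95% interval -0.84 to -0.30; limma adjusted p = 0.993), C1qa, with -0.36 ± 0.13, and Cd68, with -0.32 ± 0.13 (adjusted p = 1.00 for both). For 13.5 minus 11.5 dpc all 10 values were negative with a median of -0.33, whereas 52.3% of all genes were positive with a median of 0.01. The change of sign between the first and the last stage was not called for any single gene.

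Between stages, the C1q chains C1qa and C1qc and the lysozyme gene Lyz2 fell and C1qc and Lyz2 rose again in both genotypes. Later minus earlier differences are given; the 12.5 dpc arrays enter both steps, so the steps are not independent. From 11.5 to 12.5 dpc, 5 of 10 genes fell in KO limbs, where 10.6% of all genes fell. C1qc fell by 0.77 ± 0.09 on the log2 scale (SE, limma adjusted p = 0.0014), Adgre1 by 0.67 ± 0.13 (adjusted p = 0.00784), Lyz2 by 0.64 ± 0.12 (adjusted p = 0.00753), C1qa by 0.47 ± 0.09 (adjusted p = 0.00812) and Cd68 by 0.36 ± 0.09 (adjusted p = 0.0264). In WT limbs 3 of 10 fell over the same step, where 13.1% of all genes fell. They were C1qc, by 0.69 ± 0.09 (limma adjusted p = 0.00143), Lyz2, by 0.59 ± 0.12 (adjusted p = 0.00919), and C1qa, by 0.43 ± 0.09 (adjusted p = 0.0101). None of the 10 rose, where 6.22% of all genes rose in KO and 6.67% in WT limbs. The median over the 10 genes was -0.39 in KO and -0.23 in WT limbs, and over all genes -0.05 and -0.03. Of the 5 calls in KO limbs, 1 held without KO 11.5 dpc replicate 1 (C1qc) and 2 without KO 11.5 dpc replicate 2 (Adgre1 and C1qc), and of the 3 in WT limbs 1 held without WT 11.5 dpc replicate 2 (C1qc).

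Adgre1 had the largest difference between genotypes over this step among the 10, with a WT value of -0.07 ± 0.13 (limma adjusted p = 0.726). The test of that difference is the one given above, which did not pass. Cd68 in WT limbs gave -0.26 ± 0.09 and did not pass (limma adjusted p = 0.0714). Fcgr3 gave -0.42 ± 0.16 in KO and -0.41 ± 0.16 in WT limbs and passed in neither (limma adjusted p = 0.102 and 0.0969). Csf1r and Mrc1 gave values between -0.20 and 0.02, and Aif1 gave -0.35 ± 0.12 in KO limbs (limma adjusted p = 0.0818) and 0.01 ± 0.12 in WT limbs.

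From 12.5 to 13.5 dpc the calls were in the opposite direction. In KO limbs 2 of 10 rose, where 10.4% of all genes did, namely Lyz2 by 0.46 ± 0.12 (SE, limma adjusted p = 0.0262) and C1qc by 0.40 ± 0.09 (adjusted p = 0.0128). In WT limbs 4 of 10 rose, where 14.5% of all genes did. C1qc rose by 0.89 ± 0.09 (limma adjusted p = 0.000317), a 1.85-fold difference, Lyz2 by 0.59 ± 0.12 (adjusted p = 0.00661), C1qa by 0.57 ± 0.09 (adjusted p = 0.00212) and Cd68 by 0.51 ± 0.09 (adjusted p = 0.00413). In KO limbs Cd68 (0.29 ± 0.09, limma adjusted p = 0.0575), Adgre1 (0.40 ± 0.13, adjusted p = 0.0514) and C1qa (0.25 ± 0.09, adjusted p = 0.0784) were positive and did not pass. None of the 10 fell, where 8.22% of all genes fell in KO and 10.8% in WT limbs. The median over the 10 genes was 0.23 in KO and 0.31 in WT limbs, and over all genes 0.04 and 0.01. In KO limbs the call of Lyz2 was lost without KO 12.5 dpc replicate 1 and without either KO array of 13.5 dpc.

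**Figure D3:**
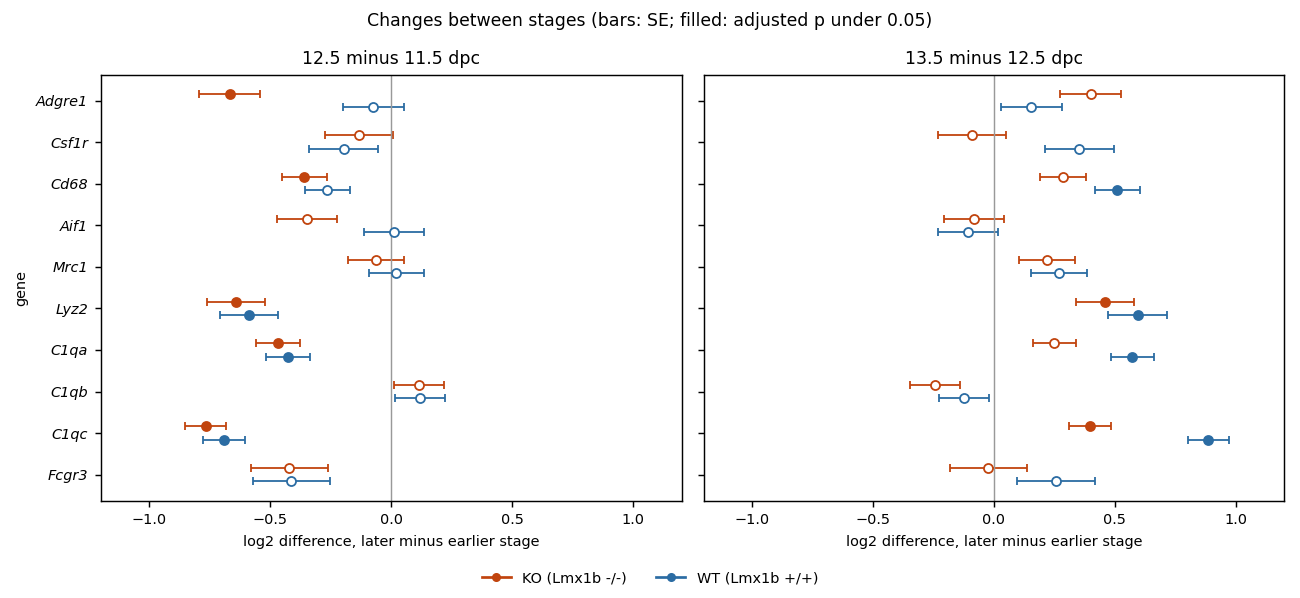
Later minus earlier difference in log2 expression (horizontal axis) of the 10 genes for each step between stages, KO above WT, with SE bars and filled points for adjusted p under 0.05. C1qc, C1qa and Lyz2 lie left of 0 in the first step and right of 0 in the second in both genotypes.

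Read over 3 stages, both 12.5 dpc arrays lay below all 4 arrays of 11.5 and 13.5 dpc for 5 of 10 genes in KO limbs (Adgre1, Cd68, Lyz2, C1qa and C1qc), as for 21.0% of all genes, and for 6 of 10 in WT limbs (Csf1r, Cd68, Lyz2, C1qa, C1qc and Fcgr3), as for 22.5% of all genes. Without both KO arrays that stood apart, the remaining KO array of 12.5 dpc was the lowest for 6 of 10 genes (35.2% of all genes). In that fit 1 gene was called in KO limbs over the second step and 5 in WT limbs over the first, against 2 and 3 in the fit to all arrays.

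The order of the group means put KO 11.5 dpc first for Adgre1, Csf1r, Aif1, Lyz2, C1qc and Fcgr3, and WT 13.5 dpc first for Cd68, Mrc1 and C1qa, and WT 12.5 dpc for C1qb. For Adgre1, Csf1r, C1qa, C1qb, C1qc and Fcgr3 the arrays of the first group overlapped with those of the next, and for Cd68, Aif1, Mrc1 and Lyz2 they did not. WT 12.5 dpc came last for Csf1r, Cd68, Lyz2, C1qa and C1qc, and KO 13.5 dpc for Aif1, C1qb and Fcgr3. KO 12.5 dpc and WT 12.5 dpc were the last 2 groups for Adgre1, Cd68, Lyz2, C1qa and C1qc, with KO the lower for Adgre1 and the higher for the others. Their arrays did not overlap for Adgre1, C1qa and C1qc, and overlapped for Cd68 and Lyz2.

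More than 1 probe set was present for C1qb and Csf1r and for no other of the 10 genes. Csf1r, the receptor on which the survival of macrophages depends, was read by 3. Its probe set 1419873_s_at read 8.09 and 8.09, then 7.17 and 7.58, then 7.79 and 7.85 in KO limbs, against 7.90 and 7.87, then 7.75 and 7.77, then 8.11 and 7.91 in WT limbs. There the difference in KO limbs was -0.72 ± 0.13 (SE) for 12.5 minus 11.5 dpc (limma adjusted p = 0.00536 over all probe sets) and 0.45 ± 0.13 for 13.5 minus 12.5 dpc (adjusted p = 0.0409), whereas in WT limbs it was -0.12 ± 0.13 and 0.25 ± 0.13 and passed in neither step. The representing probe set gave -0.13 ± 0.15 and -0.09 ± 0.15 in KO limbs, and 1423593_a_at gave -0.04 ± 0.12 and -0.08 ± 0.12. A change of Csf1r in KO limbs passed on 1 of its 3 probe sets. For C1qb, 1437726_x_at was dim, with a mean of 5.49, below the median of all values. It gave -0.82 ± 0.16 for 13.5 minus 12.5 dpc in KO limbs (limma adjusted p = 0.00825 over all probe sets) and -0.50 ± 0.16 in WT limbs (adjusted p = 0.0558). Over the same step 1417063_at gave -0.02 ± 0.12 and 0.17 ± 0.12. In none of the 14 probe sets did KO minus WT pass at any stage. For Csf1r at 12.5 dpc its sign depended on the probe set. It was -0.39 ± 0.13 on 1419873_s_at (limma unadjusted p = 0.0139), 0.23 ± 0.15 on the representing set and 0.10 ± 0.12 on 1423593_a_at. For C1qb at 13.5 dpc it was -0.43 ± 0.16 on 1437726_x_at (limma unadjusted p = 0.0245), -0.18 ± 0.11 on the representing set and -0.16 ± 0.12 on 1417063_at.

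**Figure D4:**
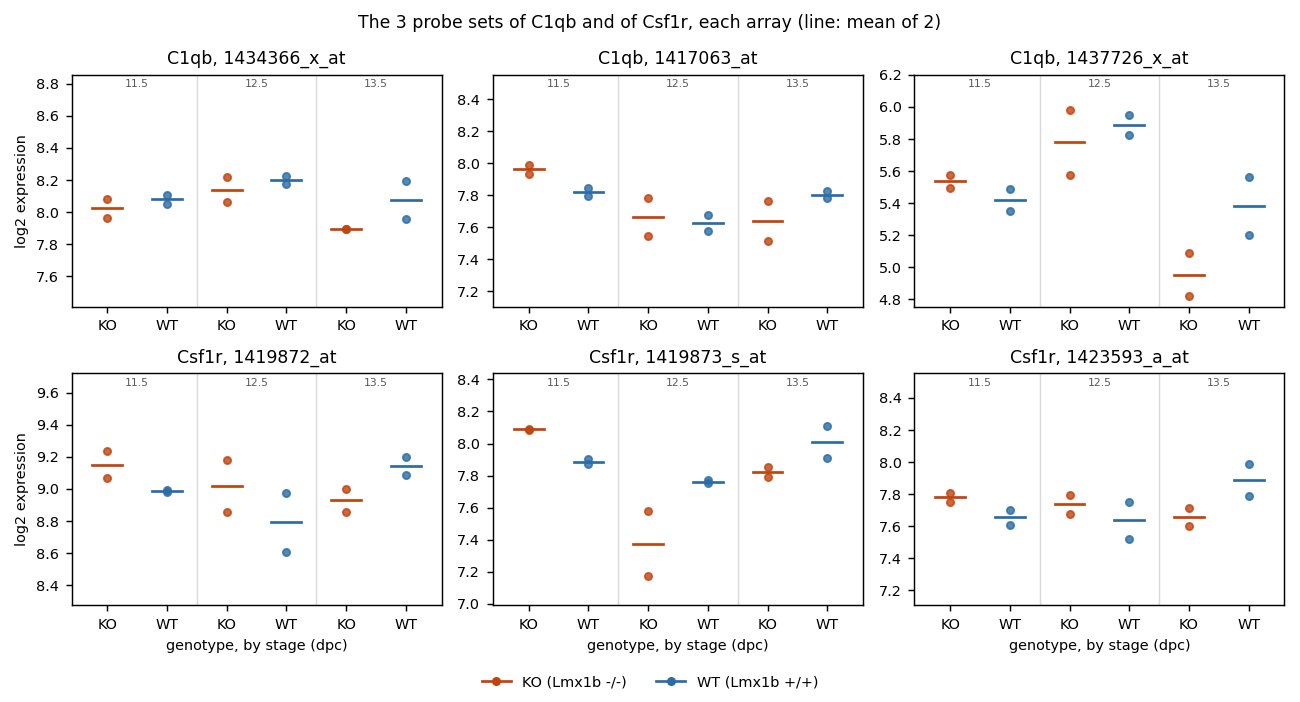
Log2 expression (vertical axis, range set per panel) of the 3 probe sets of C1qb and the 3 of Csf1r in each array, KO left of WT, with lines for means of 2. Within each gene the probe sets do not all follow the same course. Csf1r 1419873_s_at is lowest in KO at 12.5 dpc and C1qb 1437726_x_at lowest in KO at 13.5 dpc.

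The 10 genes did not move as 1 block. Over the 12 arrays, Pearson's r of a gene with the mean of the other 9 was 0.92 for C1qa, 0.91 for C1qc, 0.90 for Lyz2 and 0.87 for Cd68. It was 0.70 for Fcgr3, 0.66 for Adgre1 and 0.65 for Csf1r, and 0.37 for Mrc1, 0.34 for Aif1 and -0.41 for C1qb. These values describe arrays that share stage, array series and normalization, and carry no test. The replicates of C1qc, C1qa and Cd68 lay close together, with a residual SD smaller than that of all but 4.42%, 7.94% and 12.3% of genes. Among 11540 other genes brighter than the median, the 8 most like the mean profile of the 10 were Trip10 (r = 0.94 over 12 arrays), Pan3, Angel1, Snd1, 4930524J08Rik, Smarcd1, Tmc6 and Gpaa1 (r = 0.91). On deviations from the 6 group means they were Mpv17 (r = 0.96), Eef1aknmt, Prtg, Naa15 and Crybb2 (r = 0.94), so that no gene stood among the most alike on both measures. Trip10 spanned only 0.24 log2 units over the 12 arrays. Among the related genes read below, the highest r with the mean profile was 0.92 for C3ar1, whose own mean lay below the median.

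Other genes of the macrophage programme were read from lists of related genes, in which 0 genes passed in KO minus WT at any stage apart from Lmx1b in the limb mesenchyme list. For each count that follows, the shares of all genes are 6.22% rising and 10.6% falling in KO limbs and 6.67% and 13.1% in WT limbs over the first step, and 10.4% and 8.22% in KO limbs and 14.5% and 10.8% in WT limbs over the second. Of 11 measured ligands of CSF1R and myeloid transcription factors, 3 fell and 1 rose in KO limbs over the first step, and 3 rose and 1 fell over the second. In WT limbs 2 fell and 1 rose, then 3 rose and 0 fell. Tfec, a transcription factor of macrophages, changed by -0.69 and then 0.70 in KO limbs (limma adjusted p = 0.0106 and 0.00947) and by -0.78 and 0.75 in WT limbs (0.00575 and 0.00473). Cebpb changed by -0.81 (limma adjusted p = 0.00886) and then, without passing, 0.44 in KO limbs, and by -0.84 and 0.87 in WT limbs (adjusted p = 0.00674 and 0.00427). Cebpa fell by 0.90 in KO limbs over the first step (limma adjusted p = 0.033) and then rose in both genotypes, by 1.62 in KO limbs (adjusted p = 0.00295) and 2.08 in WT limbs (adjusted p = 0.000677). Both CEBP factors are also active outside the myeloid lineage. Maf moved the other way, rising by 1.51 in KO limbs (limma adjusted p = 0.000601) and 1.23 in WT limbs (adjusted p = 0.00112) over the first step. Csf1, the main ligand of CSF1R, rose by 0.42 ± 0.10 in KO limbs over the second step (limma adjusted p = 0.0168) and gave 0.17 ± 0.10 in WT limbs (adjusted p = 0.23). Spi1, which encodes PU.1, gave values between -0.13 and 0.21 over all 4 steps and passed in none (smallest limma adjusted p = 0.336).

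Of 17 pan-myeloid and leukocyte genes, 3 fell in KO limbs (Laptm5, Coro1a and Lst1) and 1 in WT limbs (Coro1a) over the first step, when 1 rose in WT limbs (Ctss); 10.6% of all genes fell in KO and 13.1% in WT limbs. Over the second step 1 rose in KO limbs (Lst1), and in WT limbs 1 rose (Csf2ra) and 1 fell (Lcp1). Coro1a, an actin regulator of leukocytes, fell by 0.67 in KO limbs (limma adjusted p = 0.0275) and by 0.65 in WT limbs (adjusted p = 0.0287). Lst1 fell by 0.55 in KO limbs (limma adjusted p = 0.012), where the WT value was -0.19. Ptprc, which encodes the leukocyte antigen CD45, passed in no step. Of 16 genes of resident fetal macrophages, 2 fell in KO limbs over the first step and 3 rose over the second, where 10.6% of all genes fell and 10.4% rose. In WT limbs 3 fell and 1 rose, then 3 rose and 1 fell. Cbr2 fell by 1.1 in KO limbs (limma adjusted p = 0.0198) and by 0.84 in WT limbs (adjusted p = 0.0489). F13a1, the A chain of coagulation factor XIII, fell by 0.75 in KO limbs (limma adjusted p = 0.0219) and gave -0.29 in WT limbs, which did not pass (adjusted p = 0.306). Stab1, a scavenger receptor also found on endothelium, changed by -0.52 and then 0.55 in WT limbs (limma adjusted p = 0.0138 and 0.00819), and Pf4 fell by 0.93 there over the second step (adjusted p = 0.0264).

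Among 10 other measured complement genes, C3ar1, the receptor for the C3a fragment, changed in the same directions as C1qc in both genotypes. It read 6.76 and 6.72, then 5.65 and 5.79, then 6.16 and 6.45 in KO limbs, against 6.39 and 6.58, then 5.72 and 5.85, then 6.29 and 6.60 in WT limbs. It changed by -1.02 ± 0.13 (SE) and then 0.58 ± 0.13 in KO limbs (limma adjusted p = 0.002 and 0.0164), and by -0.70 ± 0.13 and 0.66 ± 0.13 in WT limbs (adjusted p = 0.00702 and 0.00687). Cfp, which encodes properdin, went the other way in KO limbs (0.71 and -0.62, limma adjusted p = 0.0131 and 0.0216). Serping1, the inhibitor of C1, fell by 0.40 in WT limbs over the first step (limma adjusted p = 0.0336), and C5ar1 rose there by 0.38 (adjusted p = 0.0413).

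Of 19 genes of apoptotic cell clearance and the lysosome, 3 rose and 3 fell in KO limbs over the first step, and 2 rose and 4 fell over the second. In WT limbs 1 rose and 2 fell, then 7 rose (Axl, Tyro3, Gpnmb, Lgmn, Ctsb, Ctsd and Lamp1) and 1 fell. Lamp1, a lysosomal membrane protein of most cells, changed by -0.42 and then 0.55 in KO limbs (limma adjusted p = 0.00864 and 0.00266) and by -0.53 and 0.72 in WT limbs (0.00272 and 0.000588). Itgb3, an integrin chain that phagocytes use to bind dying cells, fell by 0.83 in KO limbs (limma adjusted p = 0.0108) and by 0.76 in WT limbs (adjusted p = 0.0135). Abca1, a cholesterol exporter, rose by 0.79 in KO limbs (limma adjusted p = 0.0103) and by 0.78 in WT limbs (adjusted p = 0.00921). Itgav rose by 0.45 in KO limbs over the first step (limma adjusted p = 0.0127) and fell by 0.73 in KO and 0.45 in WT limbs over the second.

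Genes of interdigital cell death moved in both directions, with 5 of 13 up and 3 down in KO limbs and 4 up and 4 down in WT limbs over the first step, and 3 up and 3 down in KO and 4 up and 1 down in WT limbs over the second. Bak1, which permeabilises mitochondria in apoptosis, changed by -1.40 and then 1.27 in KO limbs (limma adjusted p = 0.000219 and 0.000357) and by -1.45 and 1.53 in WT limbs (0.000268 and 6.42e-05). Aldh1a2, the retinoic acid synthesis enzyme, rose over the first step, by 2.14 in KO limbs (limma adjusted p = 0.00581) and 1.66 in WT limbs (adjusted p = 0.0139). Bmp2 rose over the same step by 0.98 in KO limbs (limma adjusted p = 0.00789) and 0.65 in WT limbs (adjusted p = 0.0338). Dkk1, a WNT inhibitor, rose over the second step by 1.13 in KO limbs (limma adjusted p = 0.00699) and 1.35 in WT limbs (adjusted p = 0.00214).

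Markers of other cells of blood origin were read for the same arrays. Of 11 monocyte and neutrophil genes, 8 had means below the median of all values. Over the first step 2 fell in KO limbs, with Mpo, the myeloperoxidase of neutrophil granules, at -0.99 (limma adjusted p = 0.00435) and Prtn3 at -0.52 (adjusted p = 0.0335), and Prtn3 fell by 0.75 in WT limbs (adjusted p = 0.00676), where Ngp rose by 0.44 (adjusted p = 0.0201). Over the second step 0 changed in KO limbs, and in WT limbs Prtn3 rose by 0.43 (limma adjusted p = 0.0491) and Ngp fell by 0.36 (adjusted p = 0.035). The mean level of this list lay between 5.49 and 5.84 in KO arrays and between 5.61 and 5.68 in WT arrays. Of 10 mast cell, megakaryocyte and lymphoid genes, 6 lay below the median of all values, and 0 changed in KO and 1 in WT limbs over the first step (Gp9, a platelet glycoprotein, 0.37, limma adjusted p = 0.0329). Over the second step 1 rose in KO limbs (Cd79a), and 2 rose (Cpa3 and Kit) and 1 fell (Gp9) in WT limbs. Of 10 osteoclast genes, which share the myeloid lineage, Nfatc1 rose by 1.1 in KO limbs (limma adjusted p = 0.0192) and 1.30 in WT limbs (adjusted p = 0.00854) over the first step, and Ctsk rose by 0.45 in KO (adjusted p = 0.0307) and 0.62 in WT limbs (adjusted p = 0.00617) over the second. Acp5 fell by 1.22 there in WT limbs (limma adjusted p = 0.0124), and Oscar rose by 0.65 in KO limbs (adjusted p = 0.0163).

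Markers of other tissues of the limb also varied with stage and genotype, and their part in the macrophage values was not tested. Of 8 erythroid genes, 1 fell in KO and 4 in WT limbs over the second step. Their mean level at 13.5 dpc was 8.65 and 9.5 in KO limbs, against 8.47 and 8.31 in WT limbs. KO minus WT at that stage was positive for all 8 (median 0.44) while it was negative for all 10 macrophage genes. It was positive for 47.4% of all genes. Of 12 endothelial genes 3 fell in each genotype over the first step and 3 rose in each over the second, when 1 fell in WT limbs (Emcn). Cdh5, the cadherin of endothelial junctions, changed by -0.62 and 0.57 in KO limbs (limma adjusted p = 0.0155 and 0.0215) and by -0.88 and 1.07 in WT limbs (0.00327 and 0.00103), with the same signs as C1qc. Cartilage genes rose in 4 of 10 cases in KO limbs and 7 of 10 in WT limbs over the first step, and at 13.5 dpc KO minus WT had a median of -0.73, negative for 10 of 10, with 0 called. Negative values at 13.5 dpc were also the rule for 17 of 19 clearance and lysosome genes, 11 of 12 endothelial genes and 12 of 13 cell death genes. By contrast, 10 of 17 pan-myeloid and leukocyte genes, 6 of 11 CSF1R ligands and myeloid transcription factors and 7 of 16 resident macrophage genes were negative. The counts were 8 of 10 for limb mesenchyme and 6 of 10 each for complement and osteoclast genes. They were 5 of 11 for monocyte and neutrophil genes and 4 of 10 each for skeletal muscle and for mast cell, megakaryocyte and lymphoid genes. Of 10 skeletal muscle genes 2 rose in KO and 4 in WT limbs over the first step, and 1 fell in KO and 9 in WT limbs over the second. Of 10 limb mesenchyme genes 4 rose in each genotype over the first step, and over the second 3 rose and 2 fell in each.

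**Figure D5:**
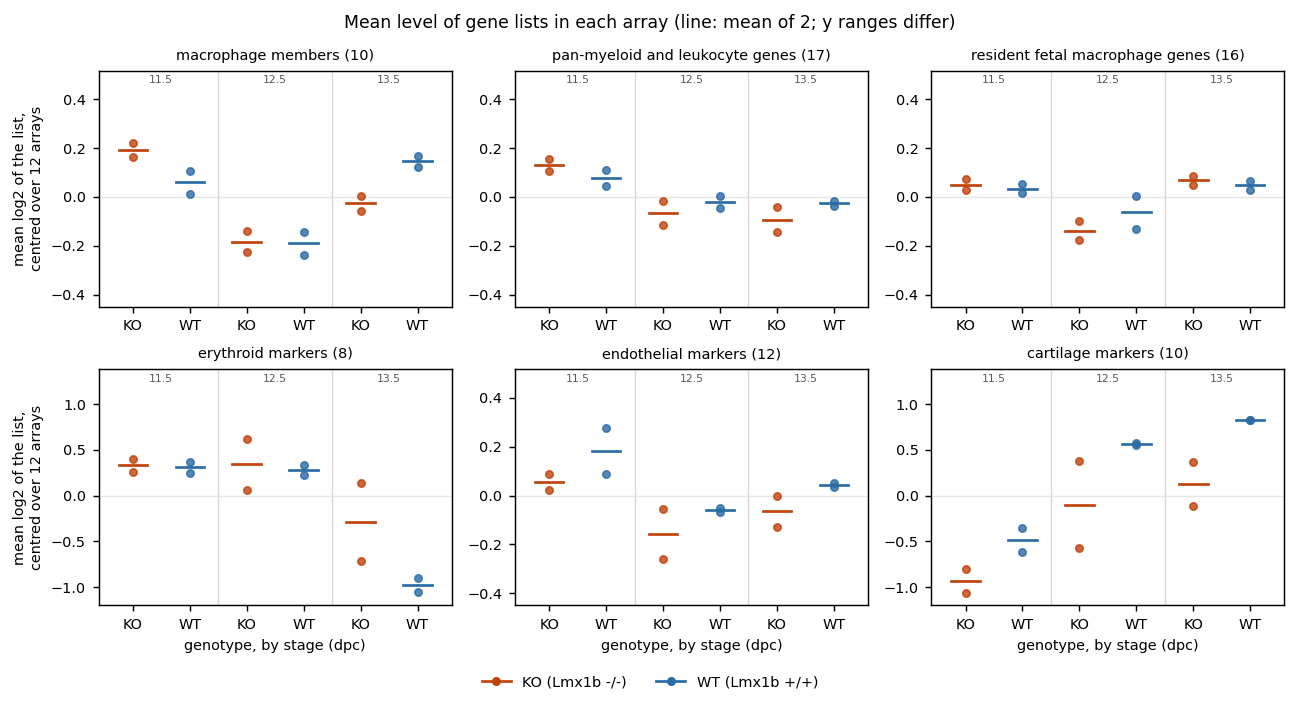
Mean log2 expression of 6 gene lists in each array, centred on its mean over the 12 arrays (vertical axis, ranges differ between panels), KO left of WT, with lines for means of 2. The mean of the 10 macrophage genes is lowest at 12.5 dpc in both genotypes and lower in KO than in WT limbs at 13.5 dpc, where the erythroid mean is higher in KO limbs. The pan-myeloid and leukocyte mean does not rise after 12.5 dpc. Before centring, its KO arrays read 6.70 and 6.80, then 6.68 and 6.78. Its WT arrays read 6.83 and 6.77, then 6.80 and 6.79. The resident macrophage mean at 13.5 dpc is not lower in KO limbs (6.50 and 6.46) than in WT limbs (6.48 and 6.44).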

How the data were processed

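The authors deposited log2 expression values for 45101 probe sets. Per the submitters' processing notes these came from RMA, a method that corrects background, normalizes between arrays and summarises probes (version not given in the sources used here). Sorted values of any pair of arrays stayed within 0.242 log2 units of each other. The number of arrays limits the precision. Of the 45037 probe sets that are not controls, 34945 named 1 gene in the platform annotation, 932 several and 9160 none; the last 2 kinds stayed out of gene tests. By gene identifier, 34741 matched RefSeq GRCm38.p6. Each gene was represented by its brightest probe set over the 12 arrays, which left 18193 genes. The means of the 6 groups were estimated by limma (3.58.1, under R 4.3.3) through lmFit and moderated with eBayes in two-sided tests, with 6 residual and 4.22 prior degrees of freedom, 11 contrasts, and Benjamini-Hochberg adjustment over all genes at 0.05; SE and 95% intervals come from this fit. The fit was tested on simulated data.

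The members and the 14 other gene lists (181 entries, 167 of them measured) were chosen with earlier results of these data known. Named are all 10 members, up to 4 called genes of each list by size of change, Lmx1b, and the 8 and 5 genes most alike. Also named, after their values were seen, are Csf1, Spi1, Ptprc, Pitx1, Meis1, Hspa1a and genes that make up small counts. The list entries that were not measured were not analysed here. Replicates were pools from different embryos. Alternatives were all probe sets, the mean of a gene's probe sets, renewed quantile normalization, leaving out dim genes, an intensity trend with a robust prior, array quality weights, only the arrays compared, each array left out, a replicate block, and leaving out both KO arrays that stood apart.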

Additional observations from a re-analysis of the deposited data

How the results depend on the processing

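KO minus WT called 0 of the 10 genes at each stage and in the differences between stages under 22 alternative settings, and in the mean under 21, since a fit to only the arrays compared has no separate value there, and Aif1 had no value with dim genes left out. The counts came with smallest limma adjusted p of 0.405, 0.218 and 0.191 at 11.5, 12.5 and 13.5 dpc, 0.299 in the mean and 0.0984 among the differences between stages. The 5 genes called in KO limbs for 12.5 minus 11.5 dpc became 0 in a fit to only the arrays compared and ranged between 1 and 6 when 1 array was left out, with 1 without KO 11.5 dpc replicate 1 and 2 without KO 11.5 dpc replicate 2. The 3 called in WT limbs became 5 without both KO arrays that stood apart and ranged between 1 and 3 with 1 array left out, with 1 without WT 11.5 dpc replicate 2. For 13.5 minus 12.5 dpc in KO limbs, the 2 called genes became 4 after renewed quantile normalization, 5 with dim genes left out, 0 with array quality weights, 0 in a fit to only the arrays compared, and 1 without both KO arrays that stood apart, and ranged between 1 and 2 with 1 array left out. The 4 called in WT limbs ranged between 4 and 6. Reading C1qb by its next brightest probe set, chosen after seeing the data, left each of these counts as it was. Of the 14 calls of single genes, C1qc in WT limbs over both steps and Lyz2, C1qa and Cd68 in WT limbs over the second step held in all 22 settings, and Cd68 in KO limbs over the first step held in 16. No called value changed sign; 100 values that were not called did, among 2399 gene and setting combinations. The number of all genes called for 12.5 minus 11.5 dpc in KO limbs, 3054, ranged between 0 and 7704. The cause of these changes was not tested. Deviations of KO and WT arrays with the same replicate number correlated at 0.187, -0.120 and -0.0869 at the 3 stages. With 2 arrays per group these single values cannot show whether KO and WT pools were paired. With a replicate block the calls in KO limbs were 5 and 3 for the 2 steps and in WT limbs 3 and 4, with 0 for KO minus WT. Probe sets near background and the small number of arrays limit what could be detected, and background correction was not varied.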
